A study of Mus musculus with 14 samples.

Results

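Bulk RNA-seq of Fgfr3-p53 cKO clones was compared between 2 ages at isolation, 4 months (P4M) and postnatal day 28 (P28), over all genes. The clones were taken by their sample labels, which gave 4 P4M and 5 P28 clones, 9 of the 14 clones sequenced. All 9 carried Fgfr3-creER, Trp53fl/fl and R26R(tdTomato/+), and the mice received tamoxifen at P21. Fgfr3-creER is a transgene whose tamoxifen-inducible recombinase is made in Fgfr3-expressing cells, so the pulse both deleted floxed Trp53 and switched on the red reporter tdTomato. The cells came from dissociated femurs after removal of the growth plate, and each library is a single tdTomato+ clone grown in culture. The labels give passage 8 for the P28 clones and passages 6 to 8 for the P4M clones. The other 5 clones were Fgfr3-WT (Fgfr3-creER and R26R(tdTomato/+) without the floxed allele, isolated at P23, passage 8), and they enter here only through the shared estimate of the spread and as reference values. Age at isolation, time since the deletion and passage cannot be told apart in this comparison. The labels do not say which clones came from separate mice, so p values measure the spread between clones.

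Endosteal stromal cells line the inner surface of bone and include precursors of osteoblasts, the cells that lay down and mineralize bone matrix, and of osteocytes, the cells embedded in that matrix. Cultured clones of such cells can also turn on cartilage or fat genes. p53, the product of Trp53, halts the cell cycle or triggers cell death after damage, and its loss in bone precursors is a known route to osteosarcoma.

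Total counts lay between 37606033 and 48648618 in the P28 clones (median 45728793) and between 43757832 and 52857424 in the P4M clones (median 48642222), a difference within the spread (p = 0.175, two-sided exact permutation test, as for each exact test here). The share of counts from mitochondrially encoded genes was 2.27% ± 0.0421 (SD, n = 5) in P28 and 3.04% ± 0.495 (SD, n = 4) in P4M clones. Every P4M clone was above every P28 clone for this share (exact p = 0.0159, the lowest value possible for groups of 4 and 5), and its part in the results below was not tested. Trp53 (ENSMUSG00000059552, chr11:69580359-69591873, plus strand), the targeted gene, measured 2.47, 2.85, 2.37, 2.48 and 2.18 CPM in the P28 clones and 2.08, 2.37, 1.72 and 2.22 CPM in the P4M clones, in CPM, the counts relative to the TMM-scaled library total. The groups overlapped and did not differ beyond their spread (log2 fold change -0.24, SE 0.145, adjusted p = 0.323), and the Fgfr3-WT clones held 49.9 to 68.2 CPM. All 9 cKO clones expressed Xist, the RNA that coats the inactive X chromosome, and the summed Y-linked genes had at most 1 count in each. Summed TPM over 7 stromal markers ranged from 7870 to 13700 in P28 and from 4790 to 21600 in P4M clones. In bulk libraries, fewer cells of a type and less RNA per cell cannot be told apart.

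Principal component analysis of the regularized log2 values (rlog) separated the groups along the first axis. PC1 held 26.5% of the variance, and the scores averaged -71.6 ± 41.1 (SD, n = 5) in P28 and 89.5 ± 10.7 (SD, n = 4) in P4M clones. The means differed by 161.1, which is 1.79 SD of the 9 scores (exact p = 0.0159). P28 clone 5 came closest to the P4M clones, at -14.5, while P28 clones 1 and 3 lay farthest away, at -111.5 and -111.3. PC2 held 17.6% of the variance and split the P28 clones: clones 1 to 3 scored between 51.5 and 55.1, clone 4 scored -104.7 and clone 5 scored -144.4. On PC2 the groups did not differ beyond their spread (exact p = 0.556). The Euclidean distance averaged 127.7 over the 10 pairs of P28 clones, 115.7 over the 6 pairs of P4M clones and 157.6 over the 20 pairs between groups.

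**Figure D1:**
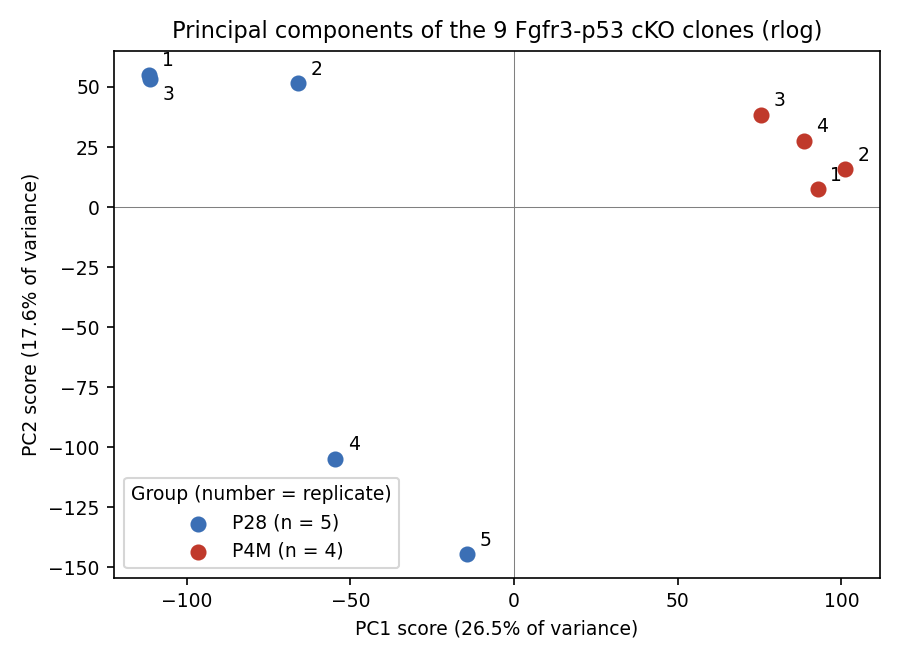
Scores of the 9 Fgfr3-p53 cKO clones on PC1 (horizontal, 26.5% of the variance) and PC2 (vertical, 17.6%) from rlog values of 30503 genes, each centred and scaled, with one point per clone, coloured by group and numbered by clone. The 4 P4M clones lie to the right of all 5 P28 clones, and P28 clones 4 and 5 lie far below P28 clones 1 to 3 on PC2.

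Of 17358 genes tested, 1254 (7.22%) differed between P4M and P28 clones at an FDR of 0.05 by the quasi-likelihood test of edgeR, 580 (3.34%) higher and 674 (3.88%) lower in P4M clones. The count without adjustment, at p under 0.05, was 4474. The median log2 fold change over all tested genes was -0.013. Among the genes called, the median was 1.19 for those higher and -1.70 for those lower, and 64 rose and 94 fell by more than 16-fold. In 1108 of the 1254 genes the P4M and P28 clones did not overlap, and in 146 they did. Without a call being required, the 4 P4M clones lay above every P28 clone in 1574 genes (9.07%) and below every P28 clone in 1729 genes (9.96%). Set against the Fgfr3-WT mean, P28 lay between Fgfr3-WT and P4M in 260 of the genes that rose and 276 of those that fell, P4M lay between P28 and Fgfr3-WT in 95 and 102, and Fgfr3-WT lay between the cKO groups in 225 and 296. Among the genes not called, these positions held 8038, 5306 and 2760 genes. P28 in the middle was the most frequent position there, as among the genes that rose, and Fgfr3-WT in the middle the least frequent. Among the genes that fell, Fgfr3-WT in the middle was the most frequent position. The P28 clones enter both differences, and the positions are a description without a test. In the labels the names of all Fgfr3-WT libraries share one leading number and those of all cKO libraries another, so that the position of Fgfr3-WT cannot be told apart from a difference between these sets of libraries. The number of calls depended on single clones: it was 480 without P4M clone 1, 496 without P28 clone 3, 524 without P28 clone 1 and 524 without P4M clone 2. It was 543 without P4M clone 4, 799 without P28 clone 4, 809 without P4M clone 3 and 2132 without Fgfr3-WT clone 1.

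The genes with the largest changes were picked among called, well-expressed genes whose groups did not overlap, so their separation follows from the choice. The gene with the largest rise among them was Wnt4 (ENSMUSG00000036856, chr4:137277489-137299726, plus strand, GRCm38), which encodes a secreted Wnt ligand. It measured 1.78, 2.25, 0.875, 13.4 and 8.51 CPM in the P28 clones and 402, 485, 222 and 244 CPM in the P4M clones. Wnt4 thus changed by 5.98 on the log2 scale (SE 1.5, adjusted p = 0.0311). The lowest P4M clone held far more than the highest P28 clone, although the P28 clones themselves varied, with clones 4 and 5 above the others. The call was lost without P28 clone 1 (adjusted p = 0.0795) and in 5 other fits that left out 1 clone. Xdh (ENSMUSG00000024066, chr17:73883895-73950196, minus strand), which encodes the purine-degrading enzyme xanthine dehydrogenase, rose more evenly, from 6.53 ± 2.23 CPM (SD, n = 5) to 124 ± 78 CPM (SD, n = 4) (log2 fold change 4.25, SE 0.625, adjusted p = 0.0043). Sema7a (ENSMUSG00000038264, chr9:57940112-57962865, plus strand), a membrane-anchored semaphorin, measured 4.73, 9.3, 7.24, 17 and 9.17 CPM in the P28 clones and 287, 178, 25.5 and 112 CPM in the P4M clones. For Sema7a the fold change was 3.99 on the log2 scale (SE 0.602, adjusted p = 0.00502). P4M clone 3 was the lowest P4M clone for this gene and still lay above all P28 clones.

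Atp2a3, a calcium pump of the endoplasmic reticulum, rose from 3.4 ± 2.61 CPM (SD, n = 5) to 60.3 ± 25.1 CPM (SD, n = 4) (log2 fold change 4.15, adjusted p = 0.0125). Avil, which encodes the actin-severing protein advillin, rose from 10.2 ± 7.76 CPM (SD, n = 5) to 164 ± 49.6 CPM (SD, n = 4) (4.01, adjusted p = 0.0151). Insc, an adaptor for spindle orientation, measured 4.43, 3.44, 4.71, 18.4 and 21.4 CPM in the P28 clones and 159, 236, 50.4 and 133 CPM in the P4M clones (3.79, adjusted p = 0.0157). Whrn, the scaffold protein whirlin, measured 7.49, 12.1, 6.66, 9.04 and 13.7 CPM in the P28 clones and 49.9, 42.1, 43.5 and 117 CPM in the P4M clones (2.69, adjusted p = 0.00757), with P4M clone 4 above the other P4M clones. These genes and Pdk4, which encodes a kinase that restrains pyruvate dehydrogenase (2.85, adjusted p = 0.00722), kept their call in every fit that left out 1 clone. Megf10 (3.83, adjusted p = 0.0294), Prex1 (3.60, adjusted p = 0.0494) and Pgbd5 (3.19, adjusted p = 0.0318) also rose, and lost the call without P28 clone 3 (adjusted p = 0.0754), P4M clone 2 (0.116) and P28 clone 1 (0.0809) at the weakest.

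The genes with the largest falls were picked by the same rule, again without overlap by choice. Among them was Comp (ENSMUSG00000031849, chr8:70373558-70382066, plus strand), cartilage oligomeric matrix protein, which measured 457, 39.3, 108, 68.4 and 9.61 CPM in the P28 clones and 0.669, 0.751, 0.355 and 2.01 CPM in the P4M clones. Comp thus changed by -7.16 on the log2 scale (SE 1.66, adjusted p = 0.0242). P28 clone 5 was the lowest P28 clone and was still above every P4M clone. The call was lost in 5 fits that left out 1 clone, with an adjusted p of 0.0729 without P4M clone 1. Ogn (ENSMUSG00000021390, chr13:49608046-49624501, plus strand), the small leucine-rich proteoglycan osteoglycin, was among the most abundant of these genes, with 2191, 612, 1565, 758 and 228 CPM in the P28 clones and 36.5, 22.1, 44.3 and 26.1 CPM in the P4M clones. For Ogn the fold change was -5.05 on the log2 scale (SE 0.701, adjusted p = 0.00365). All P4M clones held a small fraction of the lowest P28 clone, and the call held in every fit that left out 1 clone.

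Cacna1g (ENSMUSG00000020866, chr11:94408391-94474198, minus strand), which encodes a T-type calcium channel, measured 93.9, 38, 87.7, 40.4 and 8.48 CPM in the P28 clones and 0.854, 1.37, 2.45 and 0.395 CPM in the P4M clones. Cacna1g thus changed by -5.40 on the log2 scale (SE 0.778, adjusted p = 0.00415). Cdo1, the enzyme that oxidizes cysteine, fell from 87.9 ± 79 CPM (SD, n = 5) to 1.23 ± 0.35 CPM (SD, n = 4) (-6.16, adjusted p = 0.0141). Col27a1 (ENSMUSG00000045672, chr4:63214004-63334991, plus strand), a fibrillar collagen of cartilage, measured 88.2, 27.4, 29, 49.6 and 32 CPM in the P28 clones and 3.16, 2.44, 3.6 and 1.8 CPM in the P4M clones. For Col27a1 the fold change was -4.04 on the log2 scale (SE 0.489, adjusted p = 0.00274), and its groups were separated by a wide gap. Dhrs9, a short-chain dehydrogenase that acts on retinol and steroids, measured 32, 18.1, 47.6, 51 and 37.2 CPM in the P28 clones and 3, 0.706, 1.74 and 4.43 CPM in the P4M clones (-3.91, adjusted p = 0.00385). Thbs1, the abundant matrix glycoprotein thrombospondin 1, measured 9310, 5481, 6363, 17640 and 13720 CPM in the P28 clones and 755, 616, 204 and 859.5 CPM in the P4M clones (-4.11, adjusted p = 0.0305). Every P28 clone was above every P4M clone by a wide margin, yet the call was lost in 7 fits that left out 1 clone (adjusted p = 0.0819 without P4M clone 2). Sned1, Svep1, Igsf10, Sulf1, Lmod1 and Aff3 had log2 fold changes between -4.79 and -3.93, and of these Sned1 and Aff3 kept their call in every such fit. For the others the weakest adjusted p was 0.121 for Svep1 without P4M clone 1.

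**Figure D2:**
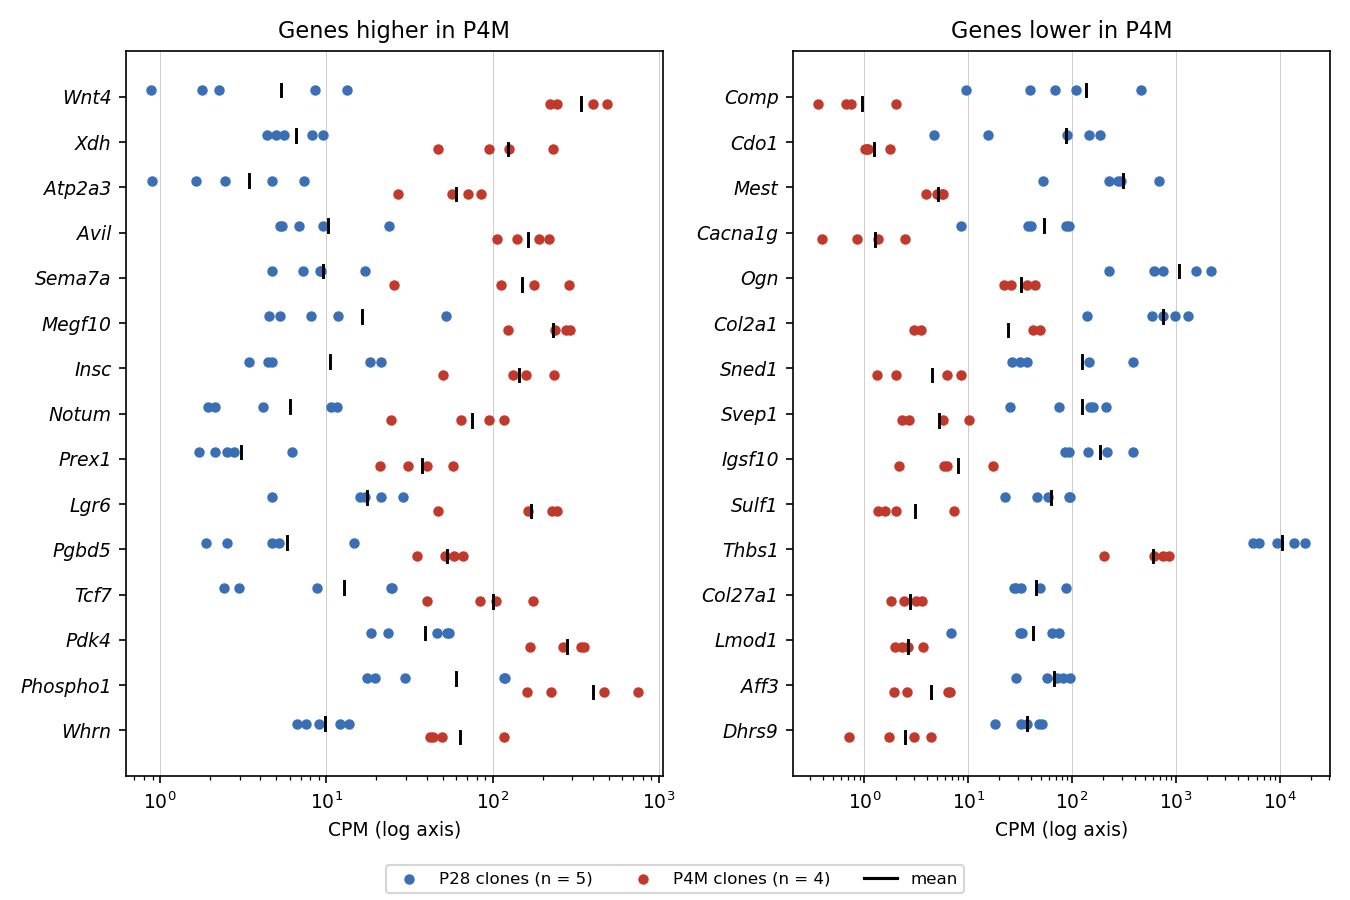
CPM on a log axis of the 15 genes with the largest rise (left) and the 15 with the largest fall (right) in P4M clones among called, well-expressed genes whose groups do not overlap, with one point per clone (blue, 5 P28 clones; red, 4 P4M clones) and black bars at the group means. For Wnt4 the P4M clones lie at 222 to 485 CPM and the P28 clones at 0.875 to 13.4 CPM, and for Ogn at 22.1 to 44.3 and 228 to 2191 CPM.

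Described by 38 lists of genes with known roles, 123 of 936 distinct tested members were called (13.1%, against 7.22% of all genes), 64 higher and 59 lower. The lists with the largest shares of called genes were osteocyte genes, glycolysis and hypoxia genes and chondrocyte genes.

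**Figure D3:**
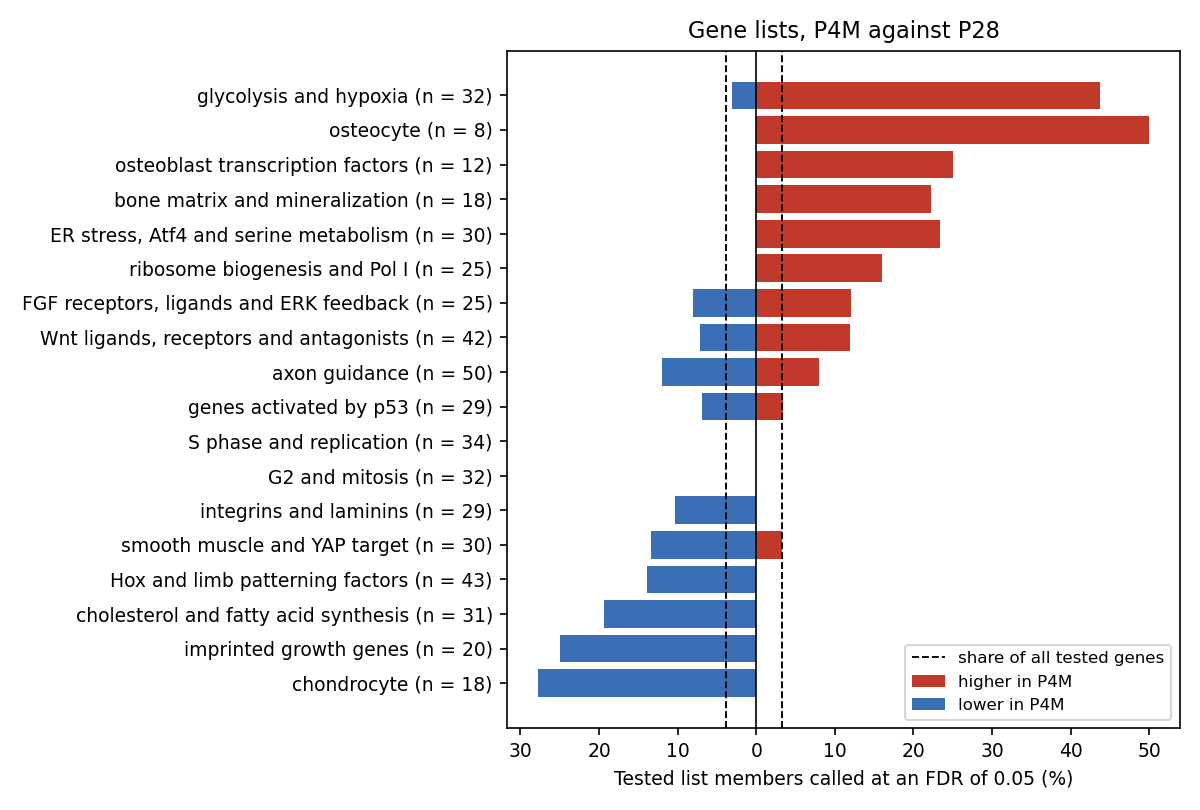
Percent of the tested members of each of 18 gene lists (vertical, number tested in parentheses) called higher (red, right) or lower (blue, left) in P4M than in P28 clones at an FDR of 0.05, with dashed lines at the share over all tested genes (3.34% higher and 3.88% lower). Osteocyte genes reach 50% higher and chondrocyte genes 27.8% lower, and the S phase and the G2 and mitosis lists have no bar.

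Several genes of late osteoblasts and osteocytes rose in P4M clones. Of 8 osteocyte genes tested, 4 rose, against 3.34% of all genes, with a median log2 fold change of 1.80. Dmp1, a matrix phosphoprotein of osteocytes, Phex, an endopeptidase that controls phosphate handling, Ptprz1, a receptor phosphatase, and Fam20c, the kinase that phosphorylates secreted matrix proteins, were the 4 called. Fam20c (ENSMUSG00000025854, chr5:138754514-138810077, plus strand) measured 25.9, 23, 23.1, 20.2 and 24.3 CPM in the P28 clones and 119.5, 208, 51.4 and 102 CPM in the P4M clones. Fam20c thus changed by 2.37 on the log2 scale (SE 0.383, adjusted p = 0.00651). All P28 clones lay close together and all P4M clones lay above them, clone 3 least. Dmp1 measured 2.09, 0.478, 3.76, 0.886 and 0.922 CPM in the P28 clones and 88.1, 137, 1.72 and 175 CPM in the P4M clones. For Dmp1 the fold change was 5.94 on the log2 scale (SE 1.13, adjusted p = 0.0113). Its P4M clone 3 was at the level of the P28 clones, so that the groups overlapped, and the same clone was low for Phex (23.2, 45.7, 1.19 and 14.1 CPM in the P4M clones) and Ptprz1 (48.9, 106, 0.869 and 24.5 CPM). Phex and Ptprz1 lost the call in 4 fits each, with adjusted p values of 0.0708 and 0.0816 without P4M clone 2. P4M clone 2 was the highest of the 9 clones for 5 of the 8 genes.

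All 12 osteoblast transcription factors had a positive log2 fold change (median 0.76), and 3 were called (25%, against 7.22% of all genes), among them Tcf7 and Dlx3. Tcf7, the transcription factor TCF1 of the Wnt pathway, measured 2.41, 8.73, 2.96, 24.9 and 24.6 CPM in the P28 clones and 104, 176, 40.3 and 84.2 CPM in the P4M clones (2.99, adjusted p = 0.0337), and Dlx3, a homeobox factor of late osteoblasts, measured 0.108, 0.167, 0.278, 1.69 and 1.08 CPM in the P28 clones and 12.3, 21.4, 9.95 and 9.49 CPM in the P4M clones (4.32, adjusted p = 0.0223). For both genes P28 clones 4 and 5 were the highest P28 clones, and both calls were lost in some fits that left out 1 clone (highest adjusted p 0.0945 for Tcf7 without P4M clone 2 and 0.0627 for Dlx3 without P28 clone 3). Sp7, which encodes osterix, was not called (1.75, adjusted p = 0.567), with 3.38, 9.78, 5.47, 293 and 289.5 CPM in the P28 clones and 381, 666, 132 and 441 CPM in the P4M clones. P28 clones 4 and 5 thus reached the range of the P4M clones, and P28 clones 1 to 3 did not.

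Of 18 bone matrix and mineralization genes, 4 rose, against 3.34% of all genes (median 1.05, 13 positive). Phospho1, a phosphatase that starts mineralization in matrix vesicles, measured 19.7, 29.6, 17.6, 117 and 119 CPM in the P28 clones and 468, 751, 161 and 226 CPM in the P4M clones (2.73, adjusted p = 0.0235). Ank (ENSMUSG00000022265, chr15:27466677-27594909, plus strand), which exports ATP and pyrophosphate and thereby restrains mineral growth, measured 224, 277, 447, 182 and 149.9 CPM in the P28 clones and 1463, 1027, 554 and 1284 CPM in the P4M clones. For Ank the fold change was 2.08 on the log2 scale (SE 0.43, adjusted p = 0.0152), and the phosphate transporter Slc20a1 rose by 1.62 on the log2 scale (adjusted p = 0.0357). Ifitm5, a membrane protein of osteoblasts, was called (3.46, adjusted p = 0.03) at a low level, with 4.25, 7.17, 0.0988 and 0.733 CPM in the P4M clones. Ank alone was called in every fit that left out 1 clone, and the list counted 1 called gene without P28 clone 1, without P28 clone 3 or without P4M clone 1. Alpl, the alkaline phosphatase, and Ibsp, bone sialoprotein, were not called (1.11, adjusted p = 0.69 and 2.20, adjusted p = 0.574) and followed the split among P28 clones seen for Sp7: Alpl measured 30.5, 57.9, 10.5, 1858 and 916 CPM in the P28 clones and 1126, 1379, 1103 and 1345 CPM in the P4M clones. Bglap, which encodes osteocalcin, measured 0.495, 0.167, 0.378, 93.8 and 102 CPM in the P28 clones and 182, 290.1, 138 and 156 CPM in the P4M clones, so that every P4M clone was above every P28 clone, with an adjusted p of 0.405. Summed TPM over 6 osteoblast markers overlapped between the groups, at 4100 to 7140 in P28 and 3820 to 16700 in P4M clones.

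Chondrocyte genes had mostly lower values in P4M clones. The median log2 fold change of the 18 tested was -2.50 and 3 were positive, and 5 fell, against 3.88% of all genes. They were the transcription factors Sox5 and Sox6, partners of Sox9 in the cartilage programme, and the matrix genes Comp, Col2a1 (type II collagen) and Col10a1 (type X collagen of hypertrophic cartilage). Sox6 (ENSMUSG00000051910, chr7:115470872-116038796, minus strand) measured 17.8, 14, 10.3, 10.4 and 7.2 CPM in the P28 clones and 2.58, 0.888, 0.632 and 1.6 CPM in the P4M clones. Sox6 thus changed by -3.06 on the log2 scale (SE 0.51, adjusted p = 0.00722), without overlap. Sox5 measured 4.97, 3.08, 13, 30.9 and 21.5 CPM in the P28 clones and 1.36, 0.364, 0.691 and 0.977 CPM in the P4M clones (-4.11, adjusted p = 0.00978). P28 clones 4 and 5 were the highest P28 clones for Sox5 and not for Sox6, and the P4M clones were below every P28 clone for both.

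Col2a1 measured 974, 592, 746, 1297 and 138 CPM in the P28 clones and 48.9, 42.3, 3.5 and 3.03 CPM in the P4M clones (-4.94, adjusted p = 0.0389), with P4M clones 3 and 4 lower than P4M clones 1 and 2. Col10a1 measured 2.69, 3.83, 1.77, 19.4 and 8.45 CPM in the P28 clones and 0.0923, 0.114, 0.217 and 0.0188 CPM in the P4M clones (-5.99, adjusted p = 0.013). Sox9 itself was not called (-1.23, adjusted p = 0.161), and P4M clones 3 and 4, at 28.5 and 16.7 CPM, reached into the range of the P28 clones (18.1 to 57.5 CPM). Acan, the cartilage proteoglycan aggrecan, measured 8.91, 37.7, 50, 5.16 and 14.1 CPM in the P28 clones and 0.323, 0.364, 0.0198 and 3.1 CPM in the P4M clones, without overlap but with an adjusted p of 0.0787. In a fit of the 9 cKO clones alone the adjusted p of Acan was 0.0341, and with DESeq2 it was 0.00191. The calls of Sox5, Sox6 and Col10a1 held in every fit that left out 1 clone, and that of Col2a1 did not (adjusted p = 0.0895 without P4M clone 4). Summed TPM over 5 chondrocyte markers was 60.6 to 468 in P28 and 8 to 16.8 in P4M clones, where the cartilage matrix protein Matn1 was at 0.

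The Wnt pathway changed in both directions: of 42 ligands, receptors and antagonists, 5 rose and 3 fell (19% called, against 7.22% of all genes), with a median of -0.08. Besides Wnt4, the genes that rose were Lgr6, a receptor for R-spondins, and Notum, Nkd2 and Sfrp4, which encode inhibitors of Wnt signalling. Notum (ENSMUSG00000042988, chr11:120653788-120661175, minus strand), an enzyme that removes the lipid from Wnt ligands, measured 1.94, 4.14, 2.13, 10.6 and 11.6 CPM in the P28 clones and 64.9, 118, 24.5 and 95 CPM in the P4M clones. For Notum the fold change was 3.64 on the log2 scale (SE 0.658, adjusted p = 0.0097). Nkd2 measured 1.94, 2.8, 0.656, 1.95 and 0.307 CPM in the P28 clones and 7.8, 29.8, 88.1 and 8.93 CPM in the P4M clones (4.46, adjusted p = 0.0152) and was highest in P4M clone 3. Lgr6 (ENSMUSG00000042793, chr1:134983301-135105276, minus strand) measured 4.69, 21.4, 17.1, 15.8 and 28.7 CPM in the P28 clones and 245, 163, 47.2 and 228 CPM in the P4M clones (log2 fold change 3.28, SE 0.553, adjusted p = 0.00757) and was lowest, among P4M clones, in clone 3. All P4M clones were above all P28 clones for these 3 genes, which for Notum and Lgr6 follows from their choice among the largest rises.

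The Wnt genes that fell were the R-spondin ligand Rspo3, the receptor Fzd2 and the co-receptor Lrp6. Rspo3 (ENSMUSG00000019880, chr10:29452416-29535867, minus strand) measured 24.6, 3.73, 18.1, 16.9 and 22.4 CPM in the P28 clones and 1.11, 1.77, 2.05 and 1.24 CPM in the P4M clones. Rspo3 thus changed by -3.47 on the log2 scale (SE 0.569, adjusted p = 0.00677), and P28 clone 2 stood below the other P28 clones but above the P4M clones. Fzd2 measured 144, 125, 165, 85.7 and 40.7 CPM in the P28 clones and 36.8, 27.7, 25.3 and 20.4 CPM in the P4M clones (-2.03, adjusted p = 0.00831). Lrp6 measured 568, 358, 439, 169.7 and 147 CPM in the P28 clones and 112, 107, 118 and 115 CPM in the P4M clones (-1.57, adjusted p = 0.0174), with P28 clones 4 and 5 near the P4M range. Lgr6, Notum, Nkd2, Rspo3 and Fzd2 kept their call in every fit that left out 1 clone, and Wnt4, Sfrp4 and Lrp6 did not. Without P4M clone 1 or 4 the list held 4 genes that rose and 2 that fell. Axin2, a gene switched on by beta-catenin, measured 6.84, 20.3, 8.17, 24.6 and 10.5 CPM in the P28 clones and 17.5, 27.5, 63.9 and 13.8 CPM in the P4M clones, and the groups overlapped (1.12, adjusted p = 0.23).

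Glycolytic and hypoxia-responsive genes were the list with the largest number of calls. Of 32 genes, 14 rose and 1 fell, against 3.34% higher and 3.88% lower over all genes, with a median log2 fold change of 1.12 and 27 positive values. In 15 genes every P4M clone was above every P28 clone, against 9.07% of all genes. In low oxygen the factor HIF-1 binds promoters at the core letters ACGTG or GCGTG and turns on glucose uptake, glycolysis and mitophagy genes. Promoter sequences, from 250 bases before to 50 bases after the gene start, are shown for 3 genes that rose and hold ACGTG. They let the motif be seen where the expression is described. They are from RefSeq (GRCm38.p6), written 5′ to 3′ on the strand of the gene, with ACGTG on either strand (CACGT on the printed strand) in capitals. Their positions are chr7:46845554-46845853 (plus strand) for Ldha, chr7:138909457-138909756 (minus strand) for Bnip3 and chr8:45999801-46000100 (minus strand) for Ankrd37.
Ldha: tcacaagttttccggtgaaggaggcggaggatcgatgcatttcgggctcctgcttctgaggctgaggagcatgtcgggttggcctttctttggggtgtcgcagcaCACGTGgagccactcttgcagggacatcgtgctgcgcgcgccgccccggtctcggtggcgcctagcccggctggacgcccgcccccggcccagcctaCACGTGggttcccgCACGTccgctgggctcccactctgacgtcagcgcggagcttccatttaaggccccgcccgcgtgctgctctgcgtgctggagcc
Bnip3: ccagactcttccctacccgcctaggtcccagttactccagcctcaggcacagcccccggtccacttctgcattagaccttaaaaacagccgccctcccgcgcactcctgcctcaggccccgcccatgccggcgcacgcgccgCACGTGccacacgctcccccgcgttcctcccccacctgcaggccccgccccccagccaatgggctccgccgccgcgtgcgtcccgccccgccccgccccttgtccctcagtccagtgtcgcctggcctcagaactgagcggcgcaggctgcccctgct
Ankrd37: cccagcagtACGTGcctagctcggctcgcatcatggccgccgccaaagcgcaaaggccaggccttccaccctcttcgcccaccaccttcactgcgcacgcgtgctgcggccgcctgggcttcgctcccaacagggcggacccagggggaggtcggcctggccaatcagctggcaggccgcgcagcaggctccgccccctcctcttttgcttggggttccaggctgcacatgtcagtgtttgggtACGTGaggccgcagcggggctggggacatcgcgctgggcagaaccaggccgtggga
ACGTG on either strand, which includes the overlapping palindrome CACGTG, was found in the promoters of 10 of the 14 genes that rose (71.4%), 21 of the 30 list genes with a promoter (70.0%), 28.7% of the 11413 tested genes with a promoter and 21.8% of all 27025 genes with a promoter. The genes that rose without ACGTG were Pdk1, Eno1, Pfkl and Tpi1. A gene with several promoters was counted if any of them held the motif. Aldoc, Ldha and Vegfa each held ACGTG in 1 promoter and not in the other, and the Ldha promoter shown is the one that held it. GCGTG on either strand was found in 78.6%, 60%, 54.5% and 35.2% of these sets of genes, so that its share in the list was close to that of all tested genes. Of the 16 list genes with a promoter that did not rise, 68.8% held ACGTG and 43.8% held GCGTG. The ACGTG share was thus similar in list genes that rose (71.4%) and that did not, while the GCGTG share was higher in those that rose (78.6%). The list was chosen as glycolysis and hypoxia genes, so an ACGTG share above that of all tested genes can follow from this choice. The part of either motif in the rise was not tested.

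Pdk1 (ENSMUSG00000006494, chr2:71873224-71903858, plus strand), the kinase that diverts pyruvate from mitochondria, measured 34.6, 30.8, 24, 21.1 and 36.1 CPM in the P28 clones and 89.8, 76.5, 222 and 163 CPM in the P4M clones. For Pdk1 the fold change was 2.23 on the log2 scale (SE 0.31, adjusted p = 0.00365). Ldha, the A subunit of lactate dehydrogenase, measured 281, 448, 334, 287 and 466 CPM in the P28 clones and 631, 529, 1192 and 875 CPM in the P4M clones (1.15, adjusted p = 0.0332). Bnip3, a mitophagy receptor, measured 29.4, 27.2, 24.5, 20.1 and 24.9 CPM in the P28 clones and 52.4, 38.8, 200.4 and 84.8 CPM in the P4M clones (1.90, adjusted p = 0.0171), and Ankrd37 measured 0.667, 0.693, 0.636, 0.322 and 0.589 CPM in the P28 clones and 1.59, 1.46, 4.33 and 1.37 CPM in the P4M clones (1.91, adjusted p = 0.015). For all 4 genes the P4M clones lay above the P28 clones, and P4M clone 3 was the highest.

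Egln3, a prolyl hydroxylase that marks HIF for degradation, had the largest rise of the list (3.71, adjusted p = 0.0246), with 7.78, 14.8, 84.8 and 18 CPM in the P4M clones against 1.39 to 4.05 CPM in the P28 clones. The glycolytic enzymes Pfkl, Tpi1, Gapdh, Pgk1, Pgam1 and Eno1 rose by 1.02 to 1.73 on the log2 scale. Gapdh alone among them overlapped, since P4M clone 2, at 1725 CPM, was at the level of P28 clones 2 and 5. Pfkm, the muscle form of phosphofructokinase, fell (-0.57, adjusted p = 0.0378), while Pfkl, the liver form, rose (1.68, adjusted p = 0.0151). The glucose transporter Slc2a1 measured 80.8, 69.6, 61.1, 77.4 and 73.9 CPM in the P28 clones and 135, 59.6, 312 and 193 CPM in the P4M clones and was not called (1.27, adjusted p = 0.137). Its adjusted p was 0.0469 in a fit of the 9 cKO clones alone and 0.0802 with DESeq2.

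P4M clone 3 was the highest of the 9 clones for 24 of the 32 genes. This clone also had the largest mitochondrial share (3.73%, against 2.61% to 3.03% in the other P4M clones). Without it, 6 genes of the list rose and 1 fell, with a median of 0.85. Without P28 clone 3, 5 rose, without P28 clone 1, 6 rose, without P4M clone 4, 6 rose, without P28 clone 4, 8 rose, and without P4M clone 1, 9 rose. The calls of Pdk1, Bnip3, Ankrd37 and Pfkl held in every fit that left out 1 clone. In a fit of the 9 cKO clones alone 19 genes of the list rose and 1 fell, and with DESeq2 21 rose and 1 fell.

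**Figure D4:**
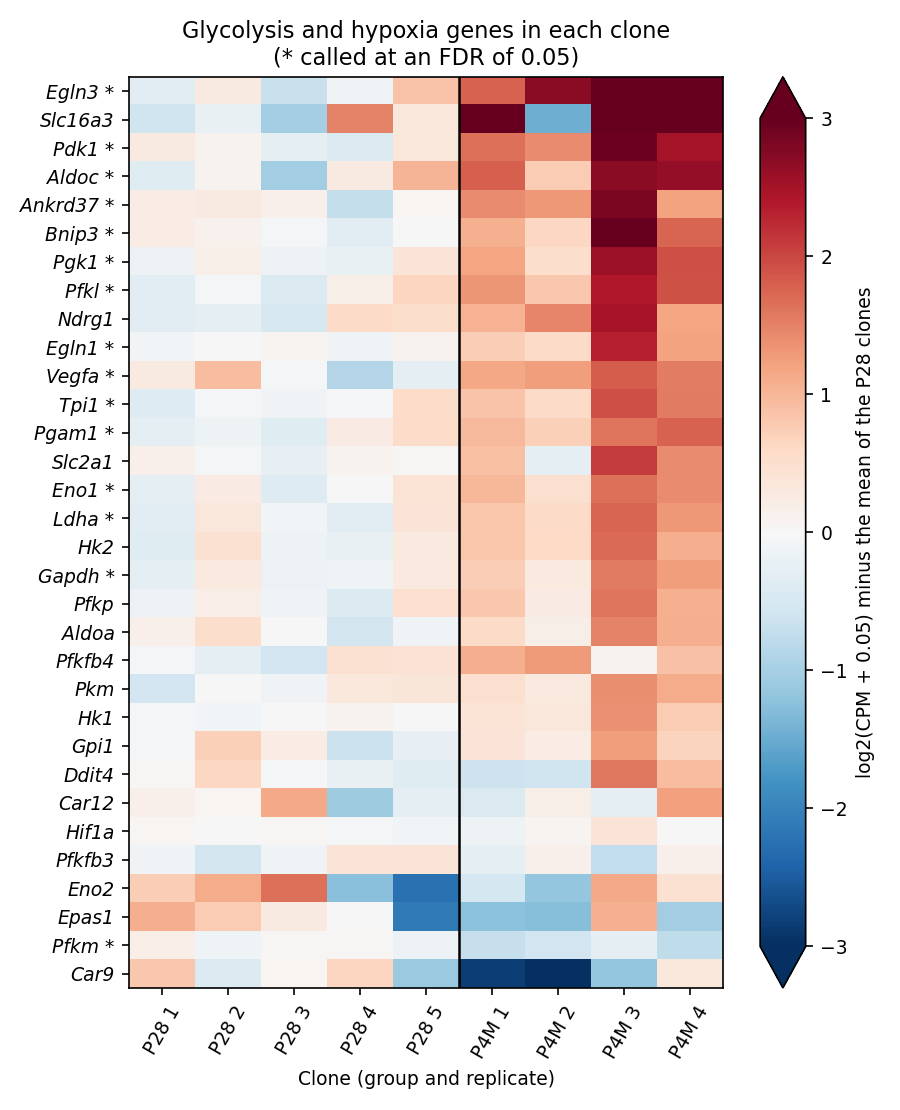
Each clone's log2(CPM + 0.05) minus the mean of the P28 clones (colour scale, blue lower and red higher) for the 32 tested glycolysis and hypoxia genes (lines, asterisk where called at an FDR of 0.05) in the 5 P28 clones, left of the black line, and the 4 P4M clones, right of it. P4M clone 3 is the highest clone for 24 of the 32 genes, and Pdk1 and Egln3 are raised in all 4 P4M clones.

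Genes of the stress response of the endoplasmic reticulum, Atf4 targets and serine metabolism had mostly higher values in P4M clones. Of 30 tested, 7 rose, against 3.34% of all genes, and 29 had positive values (median 0.69). In 14 every P4M clone was above every P28 clone, against 9.07% of all genes. Atf3, a transcription factor of the integrated stress response, measured 10.1, 28.9, 11.3, 9.21 and 12.7 CPM in the P28 clones and 40.7, 50.4, 130.0 and 58.3 CPM in the P4M clones (2.27, adjusted p = 0.0339). Ddit3, which encodes CHOP, Trib3, a pseudokinase of the same response, Atf6 and Xbp1, transcription factors of the unfolded protein response, Dnajb9, a chaperone of the endoplasmic reticulum, and Mthfd1, an enzyme of folate metabolism, rose by 0.48 to 1.55. Asns, which makes asparagine, measured 261, 312, 209.8, 194 and 257 CPM in the P28 clones and 394, 382, 334 and 360.0 CPM in the P4M clones, without overlap but not called (0.57, adjusted p = 0.289). Its adjusted p was 0.0261 in a fit of the 9 cKO clones alone and 0.277 with DESeq2. None of the 7 calls held in every fit that left out 1 clone: the list held no call without P28 clone 3 or without P4M clone 4 and at most 6 in any fit without a cKO clone. The weakest value was that of Dnajb9 without P4M clone 1 (adjusted p = 0.12). With the 9 cKO clones alone 16 genes of the list rose, and with DESeq2 10 rose.

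Of 27 Nrf2 antioxidant genes, 3 rose, a called share (11.1%) near the 7.22% of all genes, with a median of -0.01 and 13 positive values. Gclm (ENSMUSG00000028124, chr3:122245557-122270732, plus strand), a subunit of the enzyme that limits glutathione synthesis, measured 55.3, 58.1, 50, 39.2 and 51.5 CPM in the P28 clones and 97.7, 85.9, 116 and 111 CPM in the P4M clones. Gclm thus changed by 1.01 on the log2 scale (SE 0.139, adjusted p = 0.00365), with little spread within either group. Nfe2l2, which encodes Nrf2 itself (0.75, adjusted p = 0.0346), and Sqstm1, the autophagy receptor p62 (1.14, adjusted p = 0.0396), rose as well, and lost the call in some fits (Sqstm1 adjusted p = 0.0985 without P4M clone 3). Of 25 genes of ribosome biogenesis, 4 (Gnl3, Wdr12, Wdr43 and Rrp9) rose by 0.52 to 0.74, against 3.34% of all genes. None of these calls was made without scaling factors or held in every fit that left out 1 clone (Gnl3 adjusted p = 0.108 without P4M clone 2).

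Genes for the synthesis of cholesterol and fatty acids had mostly lower values in P4M clones. Of 31 genes, 6 fell, against 3.88% of all genes, and 4 had positive values (median -0.81). In 13 every P4M clone was below every P28 clone, against 9.96% of all genes. Hmgcs1 (ENSMUSG00000093930, chr13:119690379-119708260, plus strand), which makes the substrate of the rate-limiting step of cholesterol synthesis, measured 215, 309, 156, 163 and 158 CPM in the P28 clones and 68.1, 59.1, 57.2 and 50.4 CPM in the P4M clones. For Hmgcs1 the fold change was -1.77 on the log2 scale (SE 0.235, adjusted p = 0.00316). Idi1, the isomerase of isopentenyl diphosphate, measured 88, 170.0, 81.4, 90.1 and 83.7 CPM in the P28 clones and 41.1, 23.5, 38.8 and 34.2 CPM in the P4M clones (-1.58, adjusted p = 0.00682), and Mvk, mevalonate kinase, measured 47.5, 61.2, 37.4, 51.5 and 38.2 CPM in the P28 clones and 25.8, 18.8, 19.4 and 20.6 CPM in the P4M clones (-1.16, adjusted p = 0.00831). The P4M clones were below every P28 clone in all 3 genes, and P28 clone 2 was the highest.

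Elovl6, which lengthens fatty acids, fell by 1.78 (adjusted p = 0.00697), and the sterol enzymes Cyp51 (-1.09, adjusted p = 0.0352) and Tm7sf2 (-1.56, adjusted p = 0.0199) fell too. Fasn and Scd1, which make fatty acids, were not called (-0.38, adjusted p = 0.241 and 0.16, adjusted p = 0.835). P28 clone 2 was the highest of the 9 clones for 29 of the 31 genes, and P4M clone 2 the lowest for 16. Without P28 clone 2 the list held 5 genes that fell (median -0.52), and without P4M clone 2, 3 or 4 it held 4. Hmgcs1, Idi1, Mvk and Elovl6 kept their call in every fit that left out 1 clone, and Cyp51 did not (adjusted p = 0.096 without P4M clone 4).

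Among growth factor pathways, 3 of 25 FGF pathway genes rose and 2 fell (20% called, against 7.22% of all genes). Those that rose are feedback or target genes of ERK signalling. Dusp6 (ENSMUSG00000019960, chr10:99263231-99267489, plus strand), an ERK phosphatase, measured 12.3, 18.6, 13.1, 16.4 and 19.8 CPM in the P28 clones and 96, 148, 27 and 56 CPM in the P4M clones. Dusp6 thus changed by 2.35 on the log2 scale (SE 0.468, adjusted p = 0.0134), without overlap. Spry1, which encodes the inhibitor Sprouty 1, measured 14.5, 60.6, 12.5, 12.4 and 14.3 CPM in the P28 clones and 64.4, 129, 257 and 94.3 CPM in the P4M clones (2.58, adjusted p = 0.0475), with P28 clone 2 close to the lowest P4M clone, and Etv4, an ERK-induced transcription factor, rose by 1.42 (adjusted p = 0.0274). The receptor Fgfr2 fell from 182 ± 71.2 CPM (SD, n = 5) to 61.5 ± 15.6 CPM (SD, n = 4) (-1.57, adjusted p = 0.0258), as did the decoy receptor Fgfrl1 (-1.26, adjusted p = 0.0163). Fgfr3 itself, the gene whose promoter drives the recombinase, measured 6.6, 2.87, 2.54, 39 and 20.8 CPM in the P28 clones and 10.4, 14.2, 10 and 13.6 CPM in the P4M clones, with overlap (-0.25, adjusted p = 0.872). Only Dusp6 of the 5 held its call in every fit that left out 1 clone, and the weakest was Spry1 without P4M clone 3 (adjusted p = 0.118).

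Of 29 genes of VEGF, PDGF, angiopoietin and IGF signalling, 3 rose and 2 fell (17.2% called, against 7.22% of all genes). Vegfa, the main angiogenic ligand, measured 97, 155, 79.1, 43.9 and 66.2 CPM in the P28 clones and 179, 191, 283 and 234 CPM in the P4M clones (1.33, adjusted p = 0.0196). Pgf, placental growth factor, rose at a low level (2.87, adjusted p = 0.0151), as did Pdgfa, a PDGF ligand (1.61, adjusted p = 0.0166), both with overlap. Vegfd (ENSMUSG00000031380, chrX:164373378-164402650, plus strand), a lymphangiogenic ligand, measured 35.1, 10.3, 35.1, 14.6 and 16.3 CPM in the P28 clones and 0.946, 0.478, 2.27 and 2.07 CPM in the P4M clones. For Vegfd the fold change was -3.94 on the log2 scale (SE 0.614, adjusted p = 0.00589), with every P4M clone below every P28 clone. Igf1, insulin-like growth factor 1, measured 179.9, 27.4, 156, 4.01 and 2.43 CPM in the P28 clones and 0.208, 0.0683, 0.277 and 1.52 CPM in the P4M clones (-7.12, adjusted p = 0.0254). The P28 clones spread widely for Igf1, with clones 4 and 5 close to the P4M clones, and the call was lost in 5 fits (adjusted p = 0.075 without P4M clone 1).

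Of 47 TGF-beta and BMP pathway genes, 3 rose and 1 fell, a share (8.51%) near the 7.22% of all genes. The ligand Tgfb1 rose (1.42, adjusted p = 0.0157), and so did 2 inhibitors of the pathway. Smad7 (ENSMUSG00000025880, chr18:75367529-75395935, plus strand), which blocks the receptor, measured 33.8, 34, 30.7, 42 and 51.2 CPM in the P28 clones and 102, 93.7, 103 and 146 CPM in the P4M clones. Smad7 thus changed by 1.53 on the log2 scale (SE 0.228, adjusted p = 0.0043), and Skil, a corepressor of Smad proteins, measured 43.6, 65.7, 41.9, 24.8 and 48.5 CPM in the P28 clones and 174, 163, 125 and 197 CPM in the P4M clones (1.88, adjusted p = 0.0107). Both separated the groups and held in every fit that left out 1 clone, while Tgfb1 lost its call without P4M clone 2 (adjusted p = 0.0514). Ltbp2, a latent TGF-beta binding protein family member of microfibrils, fell with overlap (-4.49, adjusted p = 0.0234), at 944, 638, 1087, 211 and 49.5 CPM in the P28 clones and 74.7, 10, 13.3 and 6.75 CPM in the P4M clones, and lost its call in 5 fits (adjusted p = 0.0683 without P4M clone 2).

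Axon guidance genes, which also act in bone cell communication, changed in 10 of 50 cases (20%, against 7.22% of all genes), 4 higher and 6 lower. Sema4d (ENSMUSG00000021451, chr13:51685529-51793747, minus strand), a semaphorin that osteoclasts use to restrain osteoblasts, measured 1.42, 0.884, 0.696, 1.13 and 2.1 CPM in the P28 clones and 15.5, 28.2, 18 and 29.5 CPM in the P4M clones. For Sema4d the fold change was 4.19 on the log2 scale (SE 0.59, adjusted p = 0.00365). Sema3a (ENSMUSG00000028883, chr5:13125414-13602565, plus strand), a secreted semaphorin that osteoblasts release, moved the other way and measured 96.8, 98.3, 102, 78.3 and 251 CPM in the P28 clones and 23.4, 25.9, 16.2 and 29.6 CPM in the P4M clones. Sema3a thus changed by -2.40 on the log2 scale (SE 0.464, adjusted p = 0.0122). Neither gene showed overlap, and P28 clone 5 stood above the other P28 clones for Sema3a. Sema3c (-2.08, adjusted p = 0.0111) and the ephrin Efna5 (-1.70, adjusted p = 0.00894) also fell, and these 4 genes and Sema7a kept their call in every fit that left out 1 clone. The remaining calls were Slit2 and Unc5b (higher) and Robo2, Unc5c and Efna4 (lower), of which Robo2 was the weakest (adjusted p = 0.128 without P4M clone 1).

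Imprinted growth genes, which are expressed from the maternal or the paternal allele alone, included 5 that fell and 15 that were not called among 20 tested, against 3.88% lower over all genes. The median was -1.85, with 1 positive value. Plagl1 (ENSMUSG00000019817, chr10:13060504-13131694, plus strand), a zinc finger growth suppressor, measured 102, 39.3, 129, 90.2 and 111 CPM in the P28 clones and 15.6, 32.6, 27.6 and 30.1 CPM in the P4M clones. For Plagl1 the fold change was -1.83 on the log2 scale (SE 0.352, adjusted p = 0.0119). Mest, a paternally expressed gene, measured 297, 52.9, 277, 691 and 225 CPM in the P28 clones and 3.94, 5.05, 5.73 and 5.54 CPM in the P4M clones (-5.93, adjusted p = 0.0475), with all P4M clones below 6 CPM. The maternally expressed non-coding RNA Meg3 had 7872, 122, 8768, 168 and 13 counts in the P28 clones and 2, 1, 0 and 3 counts in the P4M clones. Its neighbour Rian had 4258, 53, 4910, 123 and 6 counts in the P28 clones and 1, 0, 1 and 2 in the P4M clones. P4M clones were at or below the floor of 3 counts for both RNAs, P28 clones 1 and 3 held nearly all of the signal, and no fold change is given. Airn, which overlaps Igf2r in antisense, fell (-2.53, adjusted p = 0.0152), and without strand information its reads and those of Igf2r cannot be told apart. Plagl1 alone held its call in every fit that left out 1 clone, and without P4M clone 1 it was the single call of the list (Mest adjusted p = 0.125).

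Of 43 Hox and limb patterning factors, 6 fell (14%, against 3.88% of all genes). Hoxa9 (ENSMUSG00000038227, chr6:52223100-52231089, minus strand) measured 50.5, 31.6, 57.1, 38.1 and 35.4 CPM in the P28 clones and 20.4, 19.9, 12.8 and 22.8 CPM in the P4M clones. Hoxa9 thus changed by -1.17 on the log2 scale (SE 0.206, adjusted p = 0.00894), and Hoxc10 measured 92.4, 93.3, 74.2, 65.8 and 57.8 CPM in the P28 clones and 40.9, 39.4, 35.9 and 38.9 CPM in the P4M clones (-0.98, adjusted p = 0.0151). Both separated the groups and held in every fit that left out 1 clone. Hoxc6, Hoxc8, Hoxc13 and the Hox cofactor Meis1 fell too, with log2 fold changes between -2.81 and -1.56. Their calls were lost in 7, 6, 11 and 7 fits that left out 1 clone (Hoxc13 adjusted p = 0.116 without P4M clone 4).

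Of 30 genes of the contractile cytoskeleton and of the YAP pathway, 4 fell, 1 rose and 25 were not called, against 3.88% lower and 3.34% higher over all genes. The median was -0.70 with 5 positive values, and in 14 every P4M clone was below every P28 clone, against 9.96% of all genes. Tead1 (ENSMUSG00000055320, chr7:112679318-112906807, plus strand), the DNA-binding partner of YAP, had the lowest adjusted p of the list, with 170.2, 154, 166, 132 and 143 CPM in the P28 clones and 72.2, 71.8, 74 and 73.7 CPM in the P4M clones. For Tead1 the fold change was -1.07 on the log2 scale (SE 0.118, adjusted p = 0.00216). The P4M clones lay within 3 CPM of each other and far below the P28 clones, and the call held in every fit. Yap1 fell less, from 173 ± 17.7 CPM (SD, n = 5) to 129.7 ± 6.96 CPM (SD, n = 4) (-0.42, adjusted p = 0.0415). Acta2, smooth muscle actin, measured 2710, 2020, 1691, 1052 and 1199 CPM in the P28 clones and 353, 322, 297 and 475 CPM in the P4M clones, without overlap but not called (-2.26, adjusted p = 0.148). Tagln (transgelin) was likewise lower in every P4M clone (134 to 313 against 505 to 849.5 CPM) and not called (-1.65, adjusted p = 0.306). In a fit of the 9 cKO clones alone, 13 genes of the list fell and 1 rose. Tead1 was the single call that fell without P28 clone 1, P28 clone 3, P4M clone 1, P4M clone 2 or P4M clone 4, and the calls of Yap1, Lmod1 and Cnn2 were lost in 9, 7 and 6 fits that left out 1 clone (Yap1 adjusted p = 0.117 without P4M clone 1). The gene that rose, Myocd, a coactivator of smooth muscle genes, was at most 2.93 CPM in any cKO clone (3.42, adjusted p = 0.0308).

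Of 29 integrin and laminin genes, 3 integrins fell, a called share (10.3%) near the 7.22% of all genes, and the median was -0.53. Itga1, a collagen receptor subunit, measured 138, 52.4, 74.7, 65.6 and 37.2 CPM in the P28 clones and 17.9, 15.8, 13.7 and 17.8 CPM in the P4M clones (-2.17, adjusted p = 0.00895). Itga5 (ENSMUSG00000000555, chr15:103344286-103366763, minus strand), the fibronectin receptor subunit, measured 221, 214, 219, 322 and 199 CPM in the P28 clones and 95.7, 82.6, 144 and 90.4 CPM in the P4M clones. Itga5 thus changed by -1.19 on the log2 scale (SE 0.212, adjusted p = 0.00895), with P28 clone 4 above the other P28 clones. Itga8 measured 66, 29.3, 38.8, 8 and 4.41 CPM in the P28 clones and 0.577, 0.319, 0.612 and 1.01 CPM in the P4M clones (-5.53, adjusted p = 0.0107). The groups did not overlap for any of the 3, and all 3 calls held in every fit that left out 1 clone (highest adjusted p 0.0382).

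Cdkn1a (ENSMUSG00000023067, chr17:29090976-29100727, plus strand), which encodes the cell-cycle inhibitor p21 and is a main target of p53, rose in P4M clones, and floxed Trp53 was targeted in both groups. It measured 35.3, 58.7, 47.1, 12.9 and 21.9 CPM in the P28 clones and 154, 265, 96.3 and 165 CPM in the P4M clones. For Cdkn1a the fold change was 2.27 on the log2 scale (SE 0.401, adjusted p = 0.00895), without overlap, and held its call in every fit that left out 1 clone. Of 29 genes activated by p53, 1 rose and 2 fell, with a median of -0.11 and a called share (10.3%) close to that of all genes. Mdm2, the p53 ubiquitin ligase, measured 46.8, 50.4, 47.1, 55.6 and 58.7 CPM in the P28 clones and 67.5, 59.8, 89.7 and 71.5 CPM in the P4M clones, without overlap but not called (0.48, adjusted p = 0.209). The adjusted p of Mdm2 was 0.0369 in a fit of the 9 cKO clones alone and 0.204 with DESeq2. Plk2 fell (-1.98, adjusted p = 0.04) with overlap, the death receptor Tnfrsf10b fell without overlap (-1.35, adjusted p = 0.0208), and Plk2 lost its call without P4M clone 2 (adjusted p = 0.111). Rb1, the retinoblastoma tumour suppressor, was the other called gene of the cell-cycle regulators (2 of 22, 9.09%, near the 7.22% of all genes). Rb1 rose from 15.8 ± 5.44 CPM (SD, n = 5) to 35.7 ± 5.36 CPM (SD, n = 4) (1.18, adjusted p = 0.0254). Myc measured 44.1, 77.4, 51, 74.6 and 79.6 CPM in the P28 clones and 119, 135, 134 and 151 CPM in the P4M clones (1.04, adjusted p = 0.0462). The call of Rb1 was lost in 4 fits that left out 1 clone (adjusted p = 0.0711 without P4M clone 2) and that of Myc in 8 (0.108 without P28 clone 3), and Myc was not called without scaling factors. edgeR called none of the 34 S phase genes (median 0.04), the 32 genes of G2 and mitosis (median 0.16) or the 30 genes of homologous recombination. At an unadjusted p under 0.05 these lists held 1, 0 and 3 genes, and DESeq2 called 1, 0 and 0.

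Other lists held few calls or none. edgeR called none of 18 MHC class I genes (median 0.88, 14 positive) or 26 chemokine and cytokine genes, of which 7 and 5 had an unadjusted p under 0.05 and DESeq2 called 2 and 3. Among 26 collagens and their enzymes, P4ha1, a prolyl hydroxylase that is also hypoxia-responsive, rose (0.97, adjusted p = 0.0167) and P4ha3 fell (-2.77, adjusted p = 0.027), a called share (7.69%) near the 7.22% of all genes. Smo, the Hedgehog transducer, fell from 176 ± 19.7 CPM (SD, n = 5) to 89.5 ± 15.7 CPM (SD, n = 4) (-0.97, adjusted p = 0.0157). Jarid2, a Polycomb cofactor, measured 17.5, 12.1, 13, 17.4 and 15.2 CPM in the P28 clones and 6.48, 6.99, 3.6 and 6.01 CPM in the P4M clones (-1.38, adjusted p = 0.00722). P4ha1 and Jarid2 held in every fit that left out 1 clone, while P4ha3 lost its call in 6 fits (adjusted p = 0.0754 without P4M clone 2) and Smo in 1 (0.0501 without P4M clone 1). Lpl, lipoprotein lipase, was the single call among 14 reticular and adipocyte genes (7.14%, near the 7.22% of all genes). Its call (-3.08, adjusted p = 0.0282) was lost in 5 fits (adjusted p = 0.0828 without P4M clone 1). The median of this list was -1.11 with 2 positive values. In 4 genes every P4M clone was below every P28 clone, against 9.96% of all genes. Summed TPM over 5 reticular or adipocyte markers was 320 to 703 in P28 and 85.4 to 306 in P4M clones. The markers did not move alike. Cxcl12 was at 234.37 to 397.18 TPM in P28 and 65.13 to 238.07 TPM in P4M clones, and Pparg at 11.06 to 46.52 and 6.06 to 7.41 TPM. Lepr was at 0.31 to 6.33 TPM in P28 clones and at 21.58, 9.33, 0.09 and 44.01 TPM in the P4M clones. Of the 13 mitochondrially encoded genes, all had positive values, in 8 every P4M clone was above every P28 clone, against 9.07% of all genes, and mt-Co1, a subunit of cytochrome c oxidase, was called (0.67, adjusted p = 0.0412). This call was lost in 9 fits that left out 1 clone (adjusted p = 0.0984 without P4M clone 3) and was not made without scaling factors.

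Markers of other cell types were mostly at low levels. Summed TPM was at most 34.6 over 6 hematopoietic markers, at most 3.25 over 5 endothelial markers, with Cdh5 and Tie1 at 0, and at most 0.02 over 4 skeletal muscle markers. Neural and glial markers summed to 13.5 to 24 TPM in P28 and 50.8 to 108 TPM in P4M clones, with Sox10 at 0. Tubb3, a neuronal tubulin, was called higher (2.48, adjusted p = 0.0476) and lost the call in 11 fits that left out 1 clone (adjusted p = 0.117 without P4M clone 2). Map2, a neuronal microtubule protein, was called lower (-2.63, adjusted p = 0.0271) and lost the call in 5 fits (0.0822 without P4M clone 1). Fcer1g, an adaptor of immune receptors, was the one call among 4 tested hematopoietic genes (2.48, adjusted p = 0.013) and held in every such fit, at 0.0956 to 0.181 CPM in the P28 clones and 0.273 to 1.7 CPM in the P4M clones. Vwf, von Willebrand factor, was called higher (6.07, adjusted p = 0.0135) and measured 0.602, 1.2, 1.13, 1.39 and 0.333 CPM in the P28 clones and 3.46, 6.74, 237 and 4.72 CPM in the P4M clones, so that P4M clone 3 stood far above the rest. Without this clone the log2 fold change of Vwf was 2.41, still called, and DESeq2 gave no adjusted p.

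Expression was also averaged along the genome, as the median difference of each clone from a P28 mean, over genes averaging 3 log2 CPM or more. For windows of genes a P28 clone was set against the other P28 clones, and the chromosome values printed here set every clone against the mean of all 5 P28 clones, a reference chosen after the data were seen. None of 193 windows of 50 genes was shifted by more than 0.5 on the log2 scale between the group means. The lowest window, at -0.471, held the 50 genes from Mvp to Bub3 on chromosome 7, of which 10 fell and 1 rose. Over all tested genes 3.88% fell and 3.34% rose. Chromosome 7 as a whole was low in all 4 P4M clones, at -0.311, -0.293, -0.273 and -0.316. Of its 614 genes, 64 fell and 13 rose (12.5% called, against 7.22% of all tested genes). P28 clones 4 and 5 were nearly as low (-0.25 and -0.266), and P28 clones 1 to 3 were high (0.107, 0.249 and 0.138). The exact p was 0.0159 (0.106 after adjustment over 20 chromosomes), also with the mean of all 9 cKO clones as the reference, and it was 0.222 when each P28 clone was set against the other P28 clones, which widens the P28 values. Tead1 and Sox6 lie on this chromosome, and their part in its shift was not tested.

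Chromosome 1 showed the opposite, smaller shift, with 0.106, 0.126, 0.078 and 0.074 in the P4M clones and -0.017 to 0.015 in the P28 clones. Of its 572 genes, 50 rose and 18 fell (11.9% called, against 7.22% of all tested genes). The exact p was 0.0159 (0.106 after adjustment). The X chromosome had the same p values, with a shift of -0.194 in P4M clone 4, where Xist was also lowest (78.5 CPM, against 539.9 to 893.5 CPM in the other cKO clones). Single clones departed on single chromosomes: P28 clone 2 was at -0.531 on chromosome 16, where P28 clones 4 and 5 were at 0.298 and 0.384, and P4M clones 3 and 4 were at -0.434 and 0.384 on chromosome 19.

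**Figure D5:**
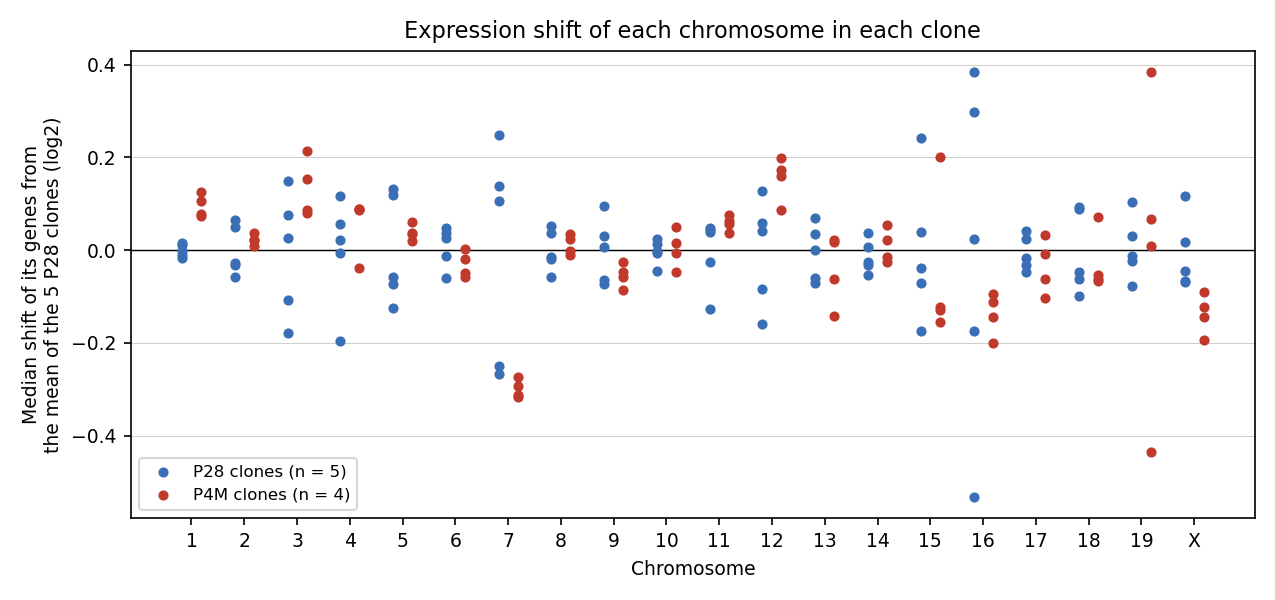
Median log2 shift of each chromosome's genes (vertical) in each cKO clone relative to the mean of all 5 P28 clones, by chromosome (horizontal), with one point per clone (blue, P28; red, P4M). On chromosome 7 the 4 P4M clones lie between -0.316 and -0.273, just below P28 clones 4 and 5 at -0.25 and -0.266, and on chromosome 16 P28 clone 2 lies at -0.531.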

How the data were processed

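Bulk RNA-seq was performed by the authors on 14 cultured clones, with SMART-Seq v4 cDNA and single-end reads of 50 cycles. By the methods and the submitters' processing notes, reads were aligned to mm10 with TopHat and Bowtie2, non-ambiguously mapped reads were counted with HTSeq, and DESeq2 was used. The kit does not mark strand, so reads of a gene and of its antisense partner cannot be told apart. The deposited count table holds whole-number counts of 30503 genes without normalization. The deposited rlog values are regularized log2 values that the authors made with DESeq2. The deposited TPM values were normalized by the authors with a program not given in the sources used here, and served for marker sums alone. The FPKM, depth-normalized and expected count tables were not used.

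Counts were tested in R 4.3.3 with edgeR 4.0.16 (filterByExpr over 3 groups, TMM, robust quasi-likelihood F-test on all 14 clones, contrast P4M against P28). Benjamini-Hochberg adjustment ran over the 17358 tested genes, with calls at an FDR of 0.05. Single values were set against each other by two-sided exact permutation tests over every split of the clones, computed in R and in Python 3.11.15. The Python form was checked on random values against scipy 1.17.1. A count of 0 allows up to 3 counts in a library, and such limits cover counting error only. In simulated data of 17100 genes, 26 of 68 genes changed by 1 on the log2 scale were called, 52 of 66 changed by 2 and 66 of 66 changed by 4, with 5 false calls. The changed genes were drawn from well-expressed genes alone and were a smaller share of genes than the calls in the data. These rates therefore do not cover genes at low levels.

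The members and gene lists were chosen with earlier results of these data known. The named genes are Trp53, Cdkn1a and sex-linked genes, the 15 genes with the largest rise and the 15 with the largest fall (called, mean log2 CPM of at least 3, no overlap, without predicted genes, Rik genes and pseudogenes), called members of the lists and up to 4 others per list. Some members are not reported here. Coordinates are from GENCODE M21 (GRCm38, which is mm10) and promoters from RefSeq (GRCm38.p6). Alternatives were DESeq2 1.42.0, RLE scaling, no scaling, no filter, at least 10 counts in every clone, the 9 cKO clones alone, a floor of 1 on the absolute log2 fold change, other inputs for the principal components, other window settings, and each clone left out in turn. The single references for chromosome shifts (the mean of the P28 clones or of all cKO clones) were added after the data were seen.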

Additional observations from a re-analysis of the deposited data

Results flagged for a closer look

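Within a group of 4 or 5 clones, a value was marked when the gap between the highest or lowest clone and its nearest neighbour exceeded the critical share of the range in Dixon's test at 95%. Of 374 groups checked, 18 were marked (4.81%), and chance alone marks about 1 in 20. All values are log2 CPM.

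Among the P4M clones, clone 3 stood apart in 5 genes: it was high for Ankrd37 (2.13), a hypoxia-responsive gene, for Casp4 (4.39) and for Vwf (7.89), low for the osteocyte gene Dmp1 (0.82), and the one P4M clone with a count of Thy1 (-3.84, from 1 count). P4M clone 1 was high for Cdo1 (0.85) and for the chaperone Dnajb9 (6.59), P4M clone 2 was low for Jag2 (-0.69), and P4M clone 4 was high for Whrn (6.88).

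Among the P28 clones, clone 2 was high for the cholesterol synthesis gene Idi1 (7.41), for Atf3 (4.86) and for Spry1 (5.92), and low for Rspo3 (1.92). P28 clone 4 was low for Ankrd37 (-1.43) and high for Itga5 (8.33), and P28 clone 5 was high for Sema3a (7.97). Along the genome, P4M clone 2 stood apart from the other P4M clones on chromosome 4, with a median shift of -0.038, and P4M clone 3 on chromosome 15, with a shift of 0.201.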

How the results depend on the processing

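The 1254 calls became 2816 with DESeq2 (1246 shared with edgeR) and 3051 with the 9 cKO clones alone (1214 shared), and the cause was not tested. Without scaling factors the count was 1205, split 400 higher and 805 lower in place of 580 and 674, and the median of all genes moved to -0.092. Without a filter the count was 955, and with a minimum absolute log2 fold change of 1 it was 883. Leaving out 1 clone gave 480 (without P4M clone 1) to 2132 (without Fgfr3-WT clone 1). The 123 calls within the lists became 211 with DESeq2 and 234 with the 9 cKO clones alone, and 57 (without P28 clone 1) to 169 (without Fgfr3-WT clone 1) when 1 clone was left out. Of 147 called genes checked singly, 56 kept their call in every fit that left out 1 clone, 145 with the 9 cKO clones alone and 146 with DESeq2, while 16 lost it without scaling factors and 34 without a filter. Fgfr3, not called at -0.25, changed sign without P28 clone 4 (0.57) and reached -0.52 without P28 clone 3. The separation on PC1 stayed between 1.66 and 1.84 SD in the alternatives run. The count of 0 windows past 0.5 became 1 with windows of 30 genes and 0 to 1 when 1 P4M clone was left out, with 1 window without P4M clone 3. No paired analysis was possible because the clone numbers merely count the clones of a group and tie no P4M clone to a P28 clone. With 4 and 5 clones, a difference of 1 on the log2 scale was called in 38.2% of simulated cases among well-expressed genes, so changes of this size were often not detectable.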

Other observations

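Some changes fell outside the groups described above. Igf2bp3, an RNA-binding protein of fetal tissues, measured 24.6, 13.6, 18.7, 37.4 and 13.1 CPM in the P28 clones and 2.28, 2.66, 1.32 and 2.24 CPM in the P4M clones (-3.34, adjusted p = 0.0358), without overlap, and lost its call in 7 fits that left out 1 clone (adjusted p = 0.0915 without P4M clone 1). Casp4, the inflammatory caspase that senses bacterial lipopolysaccharide, was the single call among 21 BCL2 family and caspase genes and measured 0.172, 0.502, 0.119, 1.61 and 2.23 CPM in the P28 clones and 6.92, 5.62, 21 and 6.88 CPM in the P4M clones (3.45, adjusted p = 0.0213), highest in P4M clone 3, without which the adjusted p was 0.0568. Mcam, the adhesion molecule CD146 of perivascular stromal cells, measured 30, 21.7, 32, 19.9 and 16.5 CPM in the P28 clones and 9.51, 6.53, 8.2 and 7.03 CPM in the P4M clones (-1.62, adjusted p = 0.0489). It was with Thy1 one of 2 calls among 18 stem and stromal genes (11.1%, near the 7.22% of all genes). Its call was lost in 9 such fits (adjusted p = 0.127 without P4M clone 2). Thy1 had 292, 1, 1711, 24 and 0 counts in the P28 clones and 0, 0, 1 and 0 in the P4M clones, so that no fold change is given.

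The interferon-induced gene Ifit2 measured 21.9, 21.2, 27.9, 24.4 and 12.6 CPM in the P28 clones and 6.09, 7.17, 8.04 and 10.2 CPM in the P4M clones (-1.45, adjusted p = 0.0147). Ifit2 was with Ifit3b one of 2 calls among 31 interferon-stimulated genes (6.45%, near the 7.22% of all genes). Its adjusted p was 0.051 without P4M clone 1. In the complement system C1s1, a protease that starts the classical pathway, measured 173, 60.8, 164, 111 and 50.6 CPM in the P28 clones and 16.9, 13.9, 42.2 and 12.7 CPM in the P4M clones (-2.38, adjusted p = 0.0198), and Cr1l, a regulator that protects cells from complement, measured 37, 39.5, 33.6, 27.9 and 34.8 CPM in the P28 clones and 67.5, 73.6, 51.2 and 55.7 CPM in the P4M clones (0.84, adjusted p = 0.0163). Both calls were lost in some fits that left out 1 clone (C1s1 adjusted p = 0.067 without P4M clone 1 and Cr1l 0.0537 without P4M clone 2). Single calls were also made for Jag2, a Notch ligand (1.77, adjusted p = 0.0496), Mmp15, a membrane protease (-3.36, adjusted p = 0.0338), and Ndufa4, a subunit of cytochrome c oxidase (-0.50, adjusted p = 0.0453). These 3 lost the call in some fits, with a highest adjusted p of 0.118, 0.0992 and 0.128.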
